A study of Mus musculus with 108 samples.

Results

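The transcripts described are those of 10 replication-independent histone genes: the linker histones H1foo and H1f0, the H2A variants H2afx, H2afj, H2afz, H2afv, H2afy and H2afy2, and the H3.3 genes H3f3a and H3f3b. The genes were chosen by symbol, and 10 of the 55573 gene IDs in each gene count table carried these symbols. RNA was sequenced from single mouse oocytes, which were either controls or carried an oocyte-specific knockout of Exosc10 (cKO), which encodes a nuclease that trims RNA as part of the nuclear exosome. The labels give no Cre driver, strain or age, and the control genotype is given as control only. One set of 64 oocytes was made into polyA libraries, in which oligo(dT) beads captured the RNA, and another set of 22 oocytes into RiboMinus libraries, in which random hexamers primed the reverse transcription without poly(A) selection. Oocytes were at the germinal vesicle stage (GV, arrested before the first meiotic division), at GV after 3 h in M2 medium (GV3h, polyA libraries only), or at MII, as eggs dissected from the oviduct. PolyA libraries came from 7 control and 15 cKO GV oocytes, 8 control and 11 cKO GV3h oocytes, and 8 control and 15 cKO MII eggs. RiboMinus libraries came from 8 control and 7 cKO GV oocytes and from 3 control and 4 cKO MII eggs. Each group came from 1 to 3 females (23 in all), each of a single genotype and stage, and all 3 RiboMinus MII controls came from 1 female. At that stage genotype and female cannot be told apart. Because oocytes of a female share their source, p-values over oocytes measure the spread between oocytes, and results are also given with counts summed per female.

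Histone variants replace the canonical histones of the nucleosome outside DNA replication, and linker histones bind the DNA that enters and leaves the nucleosome. A growing oocyte does not replicate its DNA, so its chromatin is supplied with variants made independently of S phase, and at full growth its genome becomes transcriptionally silent. After that point the levels of its mRNAs are set by storage, translation, poly(A) tail length and decay, and the length of the tail decides how well a transcript is caught by oligo(dT). H1foo encodes the linker histone of oocytes and early embryos, and H3.3 is the H3 form laid down at transcribed and newly fertilized chromatin.

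Libraries were deep enough for most of the 10 genes: gene totals ran from 4638718 to 8735914 counts per polyA library and from 12319658 to 62675760 per RiboMinus library. Levels are CPM, a gene's counts relative to the TMM-scaled total of its library, computed separately for each library type, and a gene was called changed when its edgeR adjusted p over all genes tested was under 0.05. Exosc10 itself lay between 43.0 and 166 CPM in the control oocytes and between 0 and 8.29 CPM in the cKO oocytes of both library types. Markers of the oocyte (8 genes such as Zp3 and Gdf9) summed to 14868 to 24459 CPM in polyA libraries and to 6462 to 13136 CPM in RiboMinus libraries. Markers of granulosa cells (11 genes) summed to 21.6 to 139 CPM and 14.3 to 83.9 CPM. Blood markers (5 genes) reached at most 1.13 CPM in polyA libraries, but 0 to 13.8 CPM in RiboMinus MII cKO oocytes, with 3 of the 5 at 0 in all of them, against 0 in the MII controls of that library type, and their part in the results there was not tested.

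The sequences shown first are those that set the 3′ ends of these mRNAs apart, since the 2 library types differ in whether a poly(A) tail is needed for capture. Replication-dependent histone mRNAs end in a stem-loop and carry no poly(A) tail. In GENCODE M21 transcripts (GRCm38), the histone stem-loop consensus was searched on the transcript strand in the first 100 bases after the stop codon. It was found in 26 of the 19194 protein-coding genes whose 3′ UTR is at least 100 bases long (0.135%). Replication-dependent histone genes were searched with no limit on UTR length, and 39 of 62 held it (62.9%). The sets are thus unlike, since histone genes with shorter 3′ UTRs are not among the 19194. Of the 10 variant genes H2afx alone held it, starting 47 bases after the stop codon. Its stretch is given 5′ to 3′, with the stem-loop in capitals.
H2afx stem-loop: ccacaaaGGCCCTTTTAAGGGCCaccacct
In the annotated H2afx transcript a poly(A) signal also lies near the end. That signal overlaps a cytoplasmic polyadenylation element (CPE), the U-rich motif known from oocyte mRNAs whose tails are lengthened during maturation. A CPE (TTTTAT or TTTTAAT) lay in the last 100 bases of 17.8% of the 19194 transcripts and a poly(A) signal (AATAAA or ATTAAA) in 78.4%. Among the variant genes the CPE was found in H1foo, H2afx and H2afv, and a poly(A) signal in 9 of the 10 (none in this window for H2afy). The H1foo CPE lies 63 bases from the transcript end, 45 bases upstream of its poly(A) signal. Capitals mark the CPE in the first line, the poly(A) signal in the second, and in the third both, where the CPE runs into the signal.
H1foo CPE: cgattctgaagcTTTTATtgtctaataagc
H1foo poly(A) signal: gtttaatcataatttatcAATAAAgacttt
H2afx poly(A) signal: atttaatgggctaaTTTTATTAAAggatcg
These matches are descriptions of the annotated sequence and were not tested as sites.

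The 2 pairs of genes that encode nearly the same protein were compared in their coding sequence, and how well reads of each pair can be told apart was not tested. H3f3a and H3f3b both encode H3.3 from 408 coding bases, of which 95 differ (76.7% identity, longest identical run 23 bases). The processed pseudogenes H3f3a-ps1, H3f3a-ps2 and H3f3c held 123, 30 and 47 counts over all libraries, and reads shared with them would make H3f3a uncertain. The first 60 coding bases are shown, with the 13 differing positions in capitals.
H3f3a coding start: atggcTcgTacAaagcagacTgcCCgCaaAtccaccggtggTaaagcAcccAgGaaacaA
H3f3b coding start: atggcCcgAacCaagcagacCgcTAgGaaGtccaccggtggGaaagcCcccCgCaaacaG
H2afz and H2afv encode the 2 forms of H2A.Z from 384 coding bases, of which 80 differ (79.2% identity, longest identical run 14 bases), again 13 of them in the first 60.
H2afz coding start: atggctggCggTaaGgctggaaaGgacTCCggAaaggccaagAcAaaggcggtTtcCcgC
H2afv coding start: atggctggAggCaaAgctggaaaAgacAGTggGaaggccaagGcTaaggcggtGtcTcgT

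**Figure D1:**
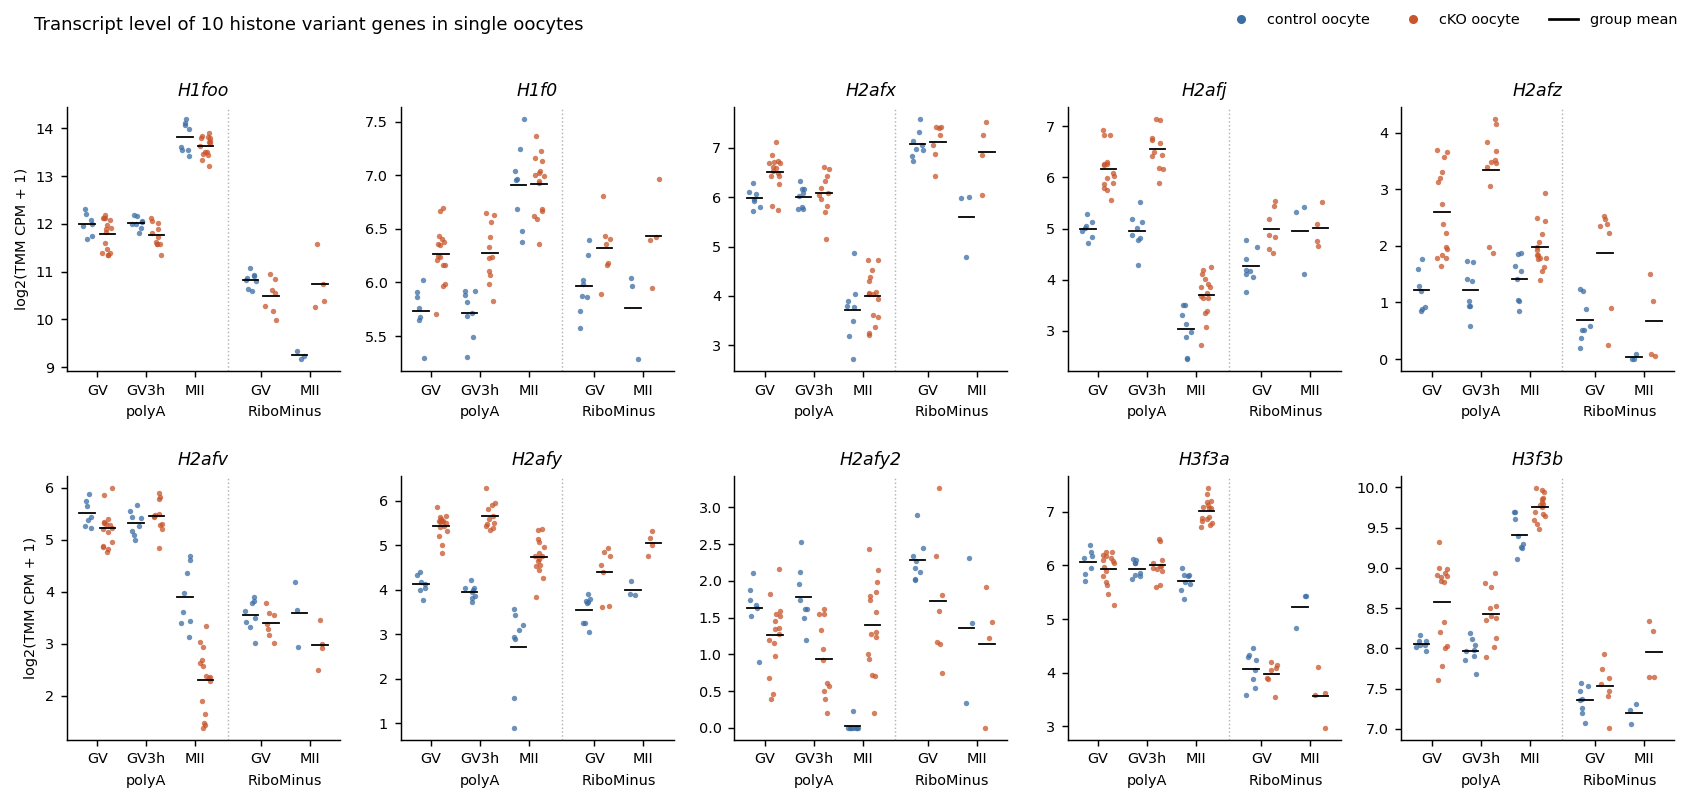
Transcript level of each of the 10 genes as log2(TMM CPM + 1), with 1 point per oocyte, blue for controls and orange for cKO, and a black bar at the group mean; each panel has its own vertical axis and the dotted line parts the library types, which were scaled separately. H1foo is the gene with the highest level in every group, and H2afy2 sits at 0 in 7 of the 8 polyA MII controls.

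Levels between genes were compared as CPM per kb of annotated exon. H1foo ranked 1 of 21903 protein-coding genes in each of the 6 polyA groups, at 3438 CPM per kb in GV controls and 12203 in MII controls. In the RiboMinus groups its rank was 9 in GV controls, 7 in GV cKO, 34 in MII controls and 9 in MII cKO. H3f3b came next among the variants in polyA GV controls, at 89.4 CPM per kb, followed by H2afx at 45.3, H2afv at 27.7, H1f0 at 25.8, H3f3a at 19.0 and H2afj at 17.02. H2afy (2.44), H2afy2 (1.01) and H2afz (0.780) were low. Lengths were those of all annotated exons joined, 6809 bases for H2afy, whose main annotated transcript has 2046. For H2afy2 both lengths are 2175, so on transcript length H2afy would stand higher, also within its pair. Within its pair H3f3b held a mean 82.5% of the H3.3 transcripts per kb in these oocytes, and H2afv held 97.3% of the H2A.Z transcripts.

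In cKO oocytes the variants called were mostly higher than in controls, and of the 10 genes only H2afy rose in each of the 5 comparisons. At polyA GV, 6 of the 10 genes rose and 0 fell (H1f0, H2afx, H2afj, H2afz, H2afy and H3f3b), where 40.4% of all 14606 genes tested were called (22% higher and 18.5% lower). At polyA GV3h, 5 rose (H1f0, H2afj, H2afz, H2afy, H3f3b) and 2 fell (H1foo, H2afy2), against 55.5% of all genes (29.4% higher and 26.1% lower). At polyA MII, 4 of 9 tested rose (H2afj, H2afy, H3f3a, H3f3b) and 2 fell (H1foo, H2afv), against 37.6% (19% higher and 18.6% lower). In RiboMinus libraries 3 of 10 rose at GV (H2afj, H2afz, H2afy), against 37.6% (21.2% higher and 16.5% lower), and at MII 4 of 9 rose (H1foo, H2afx, H2afy, H3f3b) and 1 fell (H3f3a), against 23.7% (13.9% higher and 9.78% lower). The share of variants called was thus 60%, 70%, 66.7%, 30% and 55.6% in these 5 comparisons, above that of all genes in 4 of them and below it at RiboMinus GV, and the difference between the shares was not tested. With counts summed per female, 0, 6, 4, 0 and 0 of the 10 were called, where 1, 6681, 2522, 3 and 1703 of all genes were. These are counts, and the shares called with female sums were not compared.

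Marker genes were called beside the variants in each of the 5 genotype comparisons. At polyA GV 2 of 6 granulosa markers tested were higher in cKO (median log2 change 0.71) and 2 of 8 oocyte markers lower, while the summed level of all 11 granulosa markers was 39.6 to 75.8 CPM in controls and 21.6 to 71.2 CPM in cKO, with 2 at 0 in both groups. At polyA GV3h 2 oocyte markers were higher and 2 lower, and 1 of 2 granulosa markers was lower. At polyA MII 6 of 8 oocyte markers were higher (median 0.64, also 6 with female sums), with sums of 16843 to 19871 CPM in controls and 19842 to 24459 CPM in cKO, and 0 of 2 granulosa markers were called. At RiboMinus GV 3 oocyte markers were higher and 1 lower, with mean sums of 8339 CPM in controls and 11174 CPM in cKO, and 1 of 6 granulosa markers was lower. At RiboMinus MII 1 oocyte marker was higher and 2 lower, and 0 of 6 granulosa markers were called. Their part in the results was not tested. The median log2 change of the variants was 0.53, 0.30, 0.29, 0.12 and 0.75 in these 5 comparisons, beside 0.06, 0.03, 0.04, 0.00085 and 0.13 over all genes tested.

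**Figure D2:**
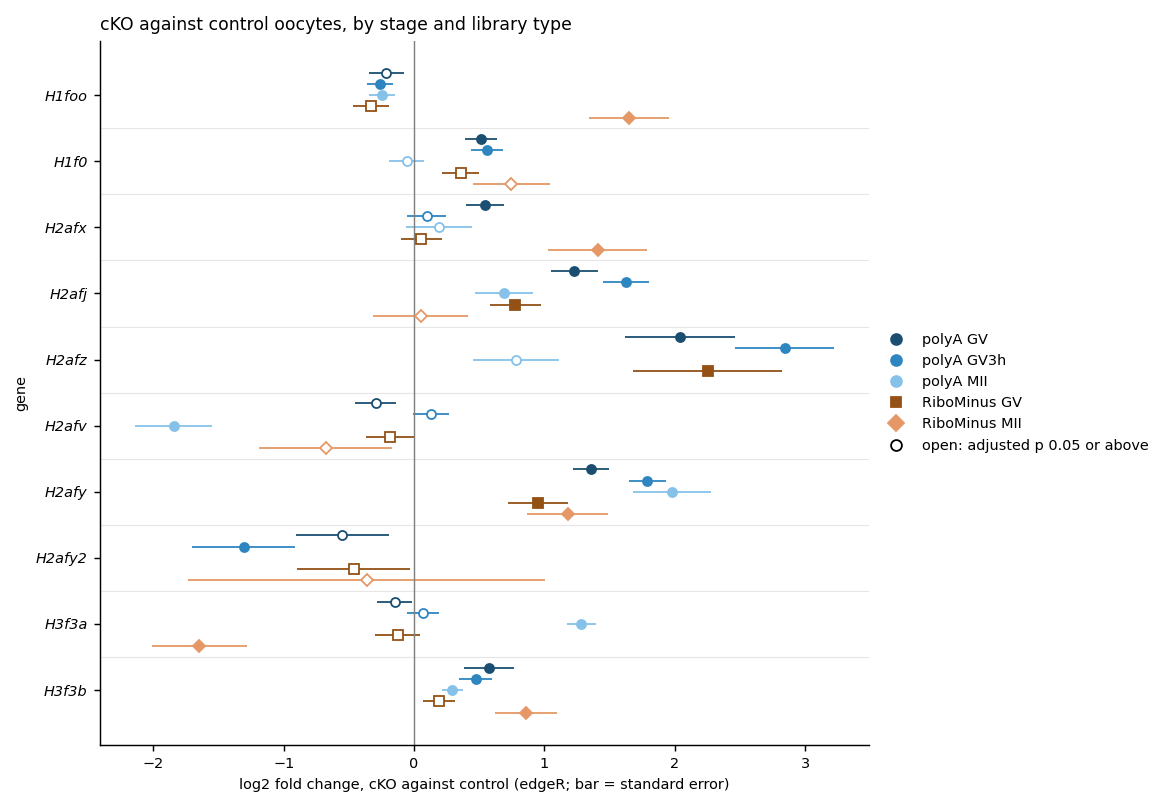
Log2 fold change of cKO against control oocytes for each gene in the 5 comparisons, with the standard error as a bar. Filled symbols passed an edgeR adjusted p of 0.05 and open symbols did not. H2afy2 at polyA MII and H2afz at RiboMinus MII are left out because they did not pass the filter on low counts. H2afy lies to the right in all 5 comparisons, while H1foo and H3f3a at RiboMinus MII lie on the other side of 0 from polyA MII.

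With counts summed per female, the genotype calls held at some stages and not at others. At polyA GV3h 6 of the 7 calls remained and at polyA MII 3 of the 6 did (H2afv, H2afy and H3f3a), beside a call of H2afy2, which the filter on low counts had left out of the fit over oocytes. At polyA GV, RiboMinus GV and RiboMinus MII, edgeR on female sums called 0 variants, and 1, 3 and 1703 genes of all. At an unadjusted p under 0.05, 3, 3 and 4 variants passed in those 3 comparisons. limma voom, with females as random blocks, called 2, 2 and 5 variants there, and DESeq2 on oocytes called 6, 4 and 5.

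Maturation moved the variants in opposite directions within a library type and, for several genes, between library types. From GV to GV3h no variant was called in controls (0 of 9 tested, 0 at an unadjusted p under 0.05) or in cKO (0 of 10, 3 at an unadjusted p under 0.05) with edgeR, and 0 with DESeq2. The background there was 0.519% of all genes for controls (0.354% up, 0.165% down) and 0.602% for cKO (0.371% up, 0.231% down). From GV to MII in polyA control libraries, H1foo, H1f0 and H3f3b rose and H2afx, H2afj, H2afv, H2afy and H3f3a fell, 8 of 9 tested, where 63.4% of all genes were called (30.1% higher and 33.3% lower). In polyA cKO libraries H1foo, H1f0, H3f3a and H3f3b rose and H2afx, H2afj, H2afz, H2afv and H2afy fell, 9 of 10, against 74.8% (33.1% higher and 41.7% lower). In RiboMinus control libraries H2afj and H3f3a rose and H1foo, H2afx and H2afz fell, 5 of 10, against 30.9% (15% higher and 15.8% lower). In RiboMinus cKO libraries 0 of 10 were called by edgeR or DESeq2 (2 at an unadjusted p under 0.05), against 16.1% (7.4% higher and 8.67% lower). The difference between the genotypes in the GV to MII change was called for 4 of 10 genes in polyA libraries, against 14.7% of all genes (9.55% higher and 5.17% lower in cKO), and for 3 of 10 in RiboMinus libraries, against 14.8% (7.85% and 7%). For the GV to GV3h change it was called for 0 of 10 by edgeR or DESeq2 (3 at an unadjusted p under 0.05), against 0.0959% (0.0768% and 0.0192%).

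Markers moved on maturation as well. In polyA controls 2 oocyte markers rose and 5 fell (median log2 change -1.36), and both granulosa markers tested rose (median 1.04), the mean sum of all 11 going from 55.2 CPM at GV to 113 CPM at MII. In polyA cKO 4 oocyte markers rose and 4 fell, 1 of 2 granulosa markers rose, and the mean granulosa sum went from 49.4 to 92.3 CPM. In RiboMinus controls 3 oocyte markers rose and 1 fell, and 1 of 7 granulosa markers rose and 2 fell. In RiboMinus cKO 2 oocyte markers fell and 0 of 6 granulosa markers were called. From GV to GV3h 0 markers of either list were called in either genotype. The part of these markers in the stage results was not tested.

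**Figure D3:**
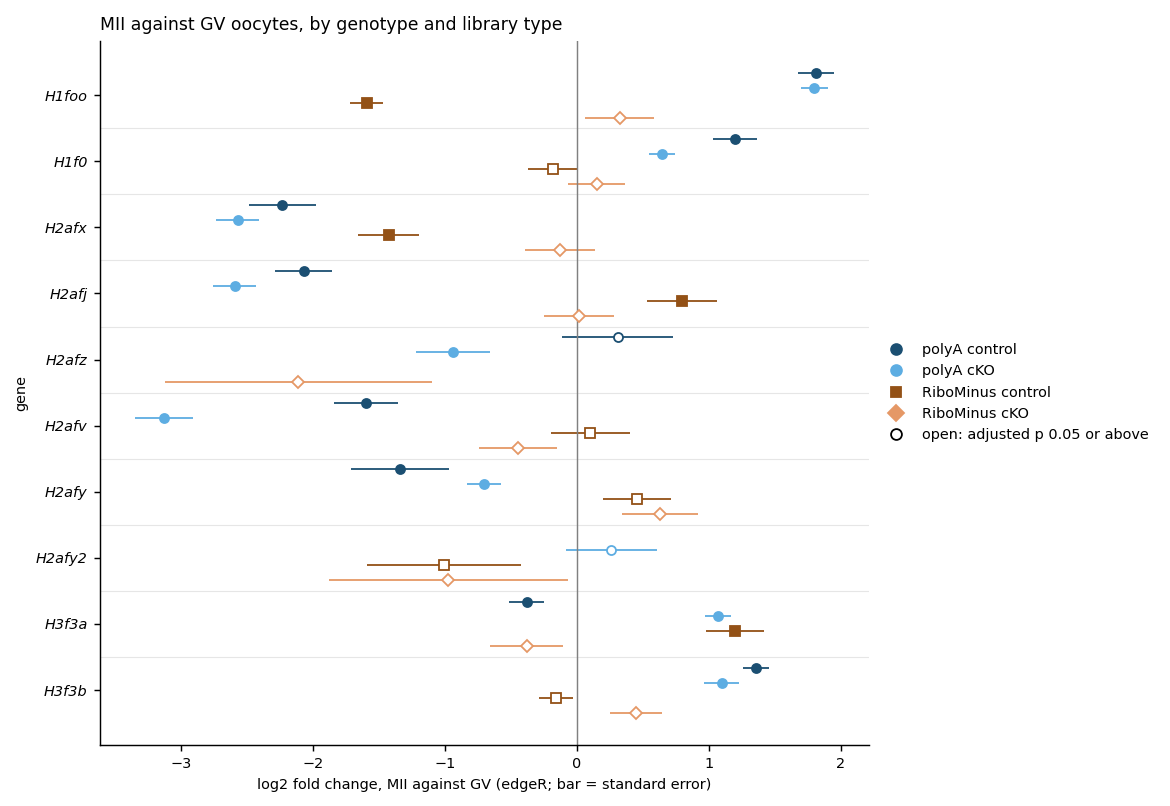
Log2 fold change of MII against GV oocytes for each gene, by genotype and library type, with the standard error as a bar and filled symbols for an edgeR adjusted p under 0.05; H2afz in RiboMinus controls is left out because its MII group held 1 count in all, and H2afy2 in polyA controls because it did not pass the filter on low counts. H1foo rose in polyA libraries of both genotypes and fell in RiboMinus controls.

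H1foo, on mouse chromosome 6 (ENSMUSG00000042279, GRCm38 chr6:115944938-115950236, plus strand, with no annotated gene overlapping it), went in opposite directions in the 2 library types when control oocytes matured. In polyA libraries it ran from 3293 to 5084 CPM, with a median of 4073, in GV controls, and from 11031 to 18798 CPM, with a median of 14405, in MII controls. The cKO oocytes ran from 2603 to 4652 CPM, with a median of 3825, at GV, and from 9442 to 15335 CPM, with a median of 13272, at MII. Every MII oocyte lay above every GV oocyte in both genotypes. The rise was 3.51-fold in controls (log2 1.81 ± 0.14, SE, edgeR adjusted p = 9.97e-10) and 3.48-fold in cKO (log2 1.80 ± 0.10, adjusted p = 4.35e-17), and it was called with female sums in both. The genotypes differed in that rise by 0.01 ± 0.17 on the log2 scale, which was not called (edgeR p = 0.961). Without cKO female V888 that difference was 0.47 and was called (adjusted p = 0.0239), and over all fits that left out a female it ran from -0.28 to 0.47.

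In RiboMinus libraries the same gene went the other way in controls. Its 8 GV controls ran from 1543 to 2157 CPM, with a median of 1852, and the 3 MII controls were at 603, 576 and 646 CPM. The ranges do not meet, and H1foo fell by 1.59 ± 0.13 on the log2 scale (SE, edgeR adjusted p = 2.65e-08, 0.00139 with female sums). The MII controls came from 1 female, so stage and female cannot be told apart here. In cKO oocytes the 7 GV values ran from 1018 to 1981 CPM, with a median of 1492, and the 4 MII values were 1702, 3039, 1335 and 1226 CPM. These overlapped, and the change of 0.32 ± 0.26 was not called. At GV the genotypes differed by -0.33 ± 0.14, which was not called over all oocytes but was without cKO female V1126 (-0.60, edgeR adjusted p = 0.000357). At MII all 4 cKO oocytes were therefore above the 3 controls, 3.14-fold on the fitted scale (log2 1.65 ± 0.31, edgeR adjusted p = 0.00278), with cKO female means of 2371 and 1280 CPM. The genotype difference in the GV to MII change was 1.91 ± 0.30 (adjusted p = 0.000243). Both values kept their calls when any single female or oocyte that could be left out was left out (1.12 to 2.05 and 1.41 to 2.28), but with female sums the adjusted p was 0.100 and 0.193.

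The library types were tested against each other in 1 model for the GV to MII change. Their CPM levels were scaled separately, but in this model the libraries of both types were scaled together. Its values therefore need not equal the difference of the 2 separate fits. H1foo showed a difference of 3.57 ± 0.21 on the log2 scale in controls (edgeR adjusted p = 3.11e-15) and of 1.71 ± 0.25 in cKO (adjusted p = 2.31e-07), polyA above RiboMinus. Both were called with female sums. In that test 9 of the 10 variants were called in controls, against 49.6% of all genes (24.5% higher and 25.1% lower), and 8 of 10 in cKO, against 45.6% (23% and 22.6%). H1foo gained polyA signal relative to RiboMinus signal in both genotypes and H2afj and H2afv lost it in both, and these calls held with each scaling, DESeq2, voom and female sums. H1f0 and H3f3b gained it in controls (1.55 and 1.68, called under all of these), but their cKO values of 0.73 and 0.88 depended on the scaling. They were not called with DESeq2 (0.48 and 0.63, adjusted p = 0.0635 and 0.0508), with its size factors in edgeR (0.072 and 0.058), with library totals (0.10 and 0.26), a scaling that shifts the median of all genes by -0.65, or with female sums (0.0949 and 0.123). H2afy lost it in both genotypes over oocytes, but with female sums in neither (adjusted p = 0.0682 and 0.122). The calls of H1f0 and H3f3b in cKO also ended without cKO female V1167 (0.50 and 0.60), and that of H2afy in controls without V889 or V1132 (-1.42 and -1.38). H3f3a lost it in controls (-1.41 ± 0.25) and gained it in cKO (1.68 ± 0.23).

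**Figure D4:**
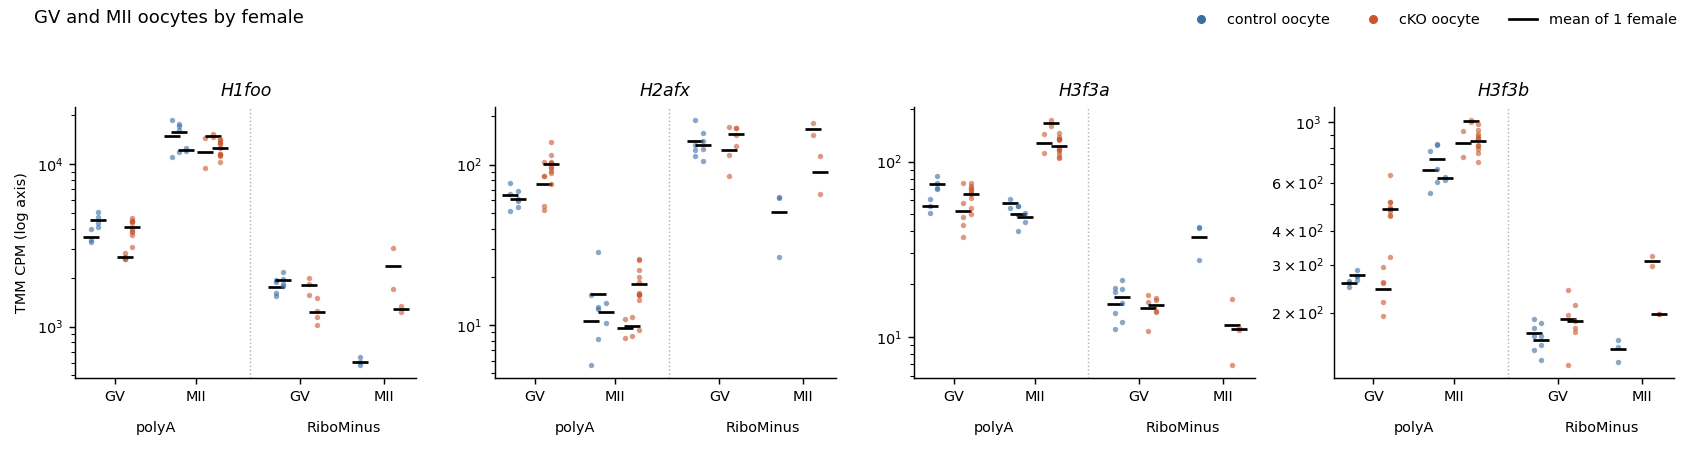
CPM of H1foo, H2afx, H3f3a and H3f3b in GV and MII oocytes on log axes, with 1 point per oocyte placed in a column for its female, blue for controls and orange for cKO, and a black bar at each female's mean. The RiboMinus MII controls form 1 column, since they came from 1 female, and the female means of H3f3b in polyA GV cKO oocytes lie apart, at 244 and 480 CPM.

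Within polyA libraries H1foo was slightly lower in cKO oocytes, by calls close to the threshold. At GV3h the 8 controls ran from 3588 to 4668 CPM, with a median of 4139, and the 11 cKO oocytes from 2595 to 4485, with a median of 3403. The difference was -0.26 ± 0.10 on the log2 scale (edgeR adjusted p = 0.0294, 0.0483 with female sums). The ranges overlapped, and leaving out V946, V993, V951 or V995 of the 6 females ended the call (-0.17, -0.24, -0.26 and -0.19). At MII the difference was -0.25 ± 0.10 (adjusted p = 0.0482, 0.365 with female sums) and was not called without V841, V897, V836 or V853 (-0.23, -0.14, -0.23 and -0.15), and at GV it was -0.21 ± 0.14 and was not called (-0.65 without V888, edgeR adjusted p = 8.99e-05). The GV3h call also ended with library totals, no filter, voom or all groups in 1 fit (-0.09 to -0.27, adjusted p = 0.0525 to 0.436). The MII one ended with each of these and with DESeq2 or its size factors (-0.14 to -0.24, 0.0612 to 0.212). The 5 genes with the most similar profile to H1foo over the 64 polyA oocytes, by Pearson correlation of log2(CPM + 1) among 9366 genes, were Stard3nl, E330034G19Rik, Cks1b, Mphosph6 and Spin1 (r = 0.985 to 0.987). Over the 22 RiboMinus oocytes and 9291 genes they were D6Ertd527e, Rbbp7, Ubqln1, Stoml2 and Sap30 (r = 0.895 to 0.935), and no gene was in both sets. These correlations share the libraries and their stages and are given without a test.

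H1f0, the linker histone otherwise known from differentiated and non-dividing cells (ENSMUSG00000096210, chr15:79028450-79030504, plus strand), was higher in cKO oocytes at GV and GV3h, and the genotypes were not called apart at MII. In polyA GV libraries it ran from 38.3 to 64.0 CPM, with a median of 53.2, in controls and from 51.2 to 102 CPM, with a median of 74.9, in cKO. The ranges overlapped, and the female means of cKO (71.2 and 79.8 CPM) were above those of controls (48.8 and 56.1). The difference was 0.51 ± 0.12 at GV (edgeR adjusted p = 0.00167, 0.345 with female sums) and 0.56 ± 0.12 at GV3h (adjusted p = 0.000446, 0.0186 with female sums). At polyA MII it was -0.06 ± 0.13 and was not called, with means of 123 CPM in controls and 122 in cKO. H1f0 rose from GV to MII by 1.20 ± 0.17 in controls and by 0.65 ± 0.10 in cKO (with library totals 0.19 in cKO, not called, adjusted p = 0.079), and the 2 changes differed by -0.53 ± 0.18 (adjusted p = 0.0413). That last call ended without V888, V856, V889, V841, V897, V836 or V853 (-0.32 to -0.71), with no filter (adjusted p = 0.0914), with voom (0.434) and with female sums (0.609). In RiboMinus libraries H1f0 was not called in any comparison of genotype or stage over all oocytes, though the GV difference of 0.36 passed without V1126 or V1132 (0.34 and 0.54) and with DESeq2, its size factors or library totals (0.38, 0.38 and 0.47), and the MII one of 0.75 without oocyte V1167_2 (0.91), with no filter (0.76) or with all groups in 1 fit (0.69), and its means lay between 54.8 and 88.1 CPM. The antisense gene Gm49544 overlaps its exon, and its mean was between 4.28 and 9.98 CPM in the 10 groups.

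H2afx encodes H2A.X, the variant phosphorylated beside DNA double-strand breaks (ENSMUSG00000049932, chr9:44334694-44336077, plus strand), and is the gene with the stem-loop shown above. It was the 1 variant of the H2A class with more CPM in RiboMinus than in polyA libraries by over 2-fold in GV controls, at 136 ± 27.6 CPM (SD, n = 8) against 62.6 ± 8.66 (n = 7). The library types were scaled separately, and over all genes the median log2 ratio of polyA to RiboMinus was -0.07 there, against -1.12 for H2afx. From GV to MII it fell in polyA libraries from 51.7 to 77.3 CPM (median 61.0) to 5.60 to 28.4 CPM (median 12.8) in controls. In cKO it went from 52.1 to 138 CPM (median 95.3) to 8.30 to 25.7 CPM (median 15.4). Neither pair of ranges met, and the falls of 2.23 ± 0.25 and 2.57 ± 0.16 on the log2 scale were called with oocytes (edgeR adjusted p = 2.47e-07 and 7.57e-16) and with female sums.

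In RiboMinus libraries H2afx fell in controls and was not called in cKO. GV controls ran from 105 to 191 CPM, with a median of 129, and the MII controls were at 62.1, 26.7 and 63.2 CPM. The fall of 1.43 ± 0.23 on the log2 scale was called (edgeR adjusted p = 8.94e-05, 0.00216 with female sums), but the MII controls came from 1 female. GV cKO oocytes ran from 85.03 to 171 CPM, with a median of 152, and the MII cKO oocytes were at 153, 182, 114 and 65.2 CPM, a change of -0.13 ± 0.26 that was not called. All 4 MII cKO oocytes were above the 3 controls, the lowest by 65.2 against 63.2 CPM. That difference was 1.41 ± 0.38 (adjusted p = 0.0177), and without cKO female V1166 it was 0.87 (adjusted p = 0.118). Without the lowest control oocyte it was 1.11 (adjusted p = 0.0782). The genotypes differed in the GV to MII change by 1.28 ± 0.37 (adjusted p = 0.0225), a call that ended without V1132, V1133, V1166, oocyte V1166_2 or oocyte V1145_3 (0.77 to 1.32), and with voom (1.26, adjusted p = 0.127). At polyA GV cKO oocytes were higher by 0.54 ± 0.15 (adjusted p = 0.00483), which was lost with female sums (0.371) and without cKO female V888 (0.26, adjusted p = 0.208) or control female V889 (0.46, 0.156). The antisense miRNA gene Gm44335 lies over its exon, and its RiboMinus means were 7.22 CPM in GV controls, 10.01 in GV cKO, 4.69 in MII controls and 14.1 in MII cKO, beside 136, 142, 50.7 and 128 CPM for H2afx. Both were lowest in MII controls, while from GV to MII in cKO the mean of Gm44335 was higher and that of H2afx lower.

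H2afj encodes a mammalian H2A variant that differs from canonical H2A mainly at its tail (ENSMUSG00000060032, chr6:136808244-136810074, plus strand). It rose in cKO oocytes before maturation and did so without overlap in polyA libraries. GV controls ran from 25.1 to 38.1 CPM, with a median of 31.2, and GV cKO oocytes from 45.9 to 121 CPM, with a median of 66.7. At GV3h controls ran from 18.4 to 44.7 CPM, with a median of 29.9, and cKO oocytes from 58.3 to 141 CPM, with a median of 89.2. Each cKO oocyte was thus above each control of its stage. The rises were 2.34-fold (log2 1.23 ± 0.18, edgeR adjusted p = 1.38e-05, 0.144 with female sums) and 3.08-fold (log2 1.62 ± 0.18, adjusted p = 2.31e-07, 0.000761 with female sums).

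At MII H2afj had fallen in polyA libraries of both genotypes, to a mean of 7.45 ± 2.34 CPM (SD, n = 8) in controls and 12.4 ± 3.53 (n = 15) in cKO. The cKO mean was higher by 0.69 ± 0.22 on the log2 scale (edgeR adjusted p = 0.0155, 0.436 with female sums), and the call ended without V897, V853 or V896 (0.25, 0.64 and 0.59). The falls from GV were 2.07 ± 0.22 and 2.59 ± 0.16. In RiboMinus libraries it rose in controls instead, from 12.5 to 26.4 CPM (median 17.03) at GV to 38.9, 16.4 and 41.9 CPM at MII. That rise of 0.80 ± 0.26 (edgeR adjusted p = 0.0256) was called in 1 of the 5 fits that left out a female or an oocyte, and ended without V1132, V1133, or oocyte V1145_2 or V1145_4 (0.54 to 0.86). The library types differed in the GV to MII change by -2.71 ± 0.34 in controls and -2.37 ± 0.31 in cKO, both called with female sums too. RiboMinus GV cKO oocytes were 1.71-fold above controls (log2 0.78 ± 0.20, adjusted p = 0.00678, 0.134 with female sums), which ended without V1131, V1132 or V1133 (0.71, 0.70 and 0.85). The antisense miRNA gene Gm44364 lies over the exon of H2afj and had means of 4.38 CPM in polyA GV controls and 12.5 in polyA GV cKO oocytes.

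H2afz encodes H2A.Z.1, a variant placed around transcription start sites by the SRCAP and EP400 complexes (ENSMUSG00000037894, chr3:137864487-137866922, plus strand). It was the variant with the largest fitted rise in cKO oocytes at GV and GV3h, from a low base. Polyadenylated H2afz was at 5 to 14 counts per oocyte in GV controls (0.808 to 2.39 CPM, median 1.30) and at 17 to 94 counts in GV cKO oocytes (2.13 to 11.9 CPM, median 4.22). At GV3h controls ran from 0.502 to 2.34 CPM, with a median of 1.31, and cKO oocytes from 2.64 to 17.9 CPM, with a median of 10.2. The ranges overlapped at GV and not at GV3h. The rises were 4.12-fold at GV (log2 2.04 ± 0.42, edgeR adjusted p = 0.000493, 0.157 with female sums) and 7.17-fold at GV3h (log2 2.84 ± 0.38, adjusted p = 2.31e-06, 0.000971 with female sums). The cKO females differed among themselves, with means of 8.45 and 4.60 CPM at GV and of 9.69, 5.35 and 14.5 CPM at GV3h. RiboMinus GV oocytes gave 4.76-fold (log2 2.25 ± 0.57, adjusted p = 0.00718, 0.131 with female sums), and the call ended without cKO female V1131 (1.27, adjusted p = 0.449), whose mean was 4.42 CPM against 1.58 in the other, and without V1132 or V1133 (2.17 and 2.31).

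H2afz was low at MII too. In polyA controls its mean was 1.39 CPM at GV and 1.74 at MII, a change of 0.31 ± 0.42 that was not called. PolyA MII controls ran from 0.808 to 2.67 CPM and cKO oocytes from 1.65 to 6.65 CPM, a difference of 0.78 ± 0.33 that did not pass (with DESeq2, library totals or all groups in 1 fit it did, adjusted p = 0.0391 to 0.0488). In cKO it fell from GV to MII by 0.94 ± 0.28 on the log2 scale (edgeR adjusted p = 0.00338, 0.0997 with female sums), and the call ended without V857 or V897 (-0.57 and -1.16). The 3 RiboMinus MII controls held 1 H2afz count in all, and the 4 cKO oocytes held 4, 21, 1 and 48 counts. The ratio of means was 34.3, with an exact 95% Poisson interval on the single control count of 6.16 to 1356, and it covers counting error only. The gene did not pass the filter on low counts in that comparison. Against the 80 counts of the 8 GV controls, those MII controls were lower by a ratio of 30.4 (5.46 to 1202), a fall whose edgeR call (adjusted p = 0.0233) ended without oocyte V1145_3 or V1145_4 (0.0689 and 0.0702) and with no filter (0.0686).

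H2afv encodes H2A.Z.2 (ENSMUSG00000041126, chr11:6427229-6444443, minus strand) and was lower in cKO oocytes at polyA MII. PolyA GV controls ran from 36.5 to 57.8 CPM, with a median of 42.5, and cKO oocytes from 26.1 to 63.0 CPM, with a median of 36.5. The difference of -0.30 ± 0.16 was not called, but the cKO female means (33.8 and 39.4 CPM) lay below those of controls (46.6 and 44.3), and without cKO female V888 it was -0.45 and was called (edgeR adjusted p = 0.0215). At polyA MII controls ran from 7.72 to 24.8 CPM, with a median of 12.9, and cKO oocytes from 1.62 to 9.22 CPM, with a median of 4.15. The ranges overlapped slightly, and the 3 cKO female means (2.94, 1.89 and 5.04 CPM) were all below the 3 control means (15.4, 16.5 and 12.2). H2afv was 3.59-fold lower (log2 -1.84 ± 0.30, edgeR adjusted p = 1.81e-05, 0.00567 with female sums), and the call held without any 1 female. From GV to MII it fell by 1.60 ± 0.24 on the log2 scale in controls and by 3.13 ± 0.22 in cKO, a difference of -1.51 ± 0.34 (adjusted p = 0.00156, 0.165 with female sums). RiboMinus libraries gave no call for H2afv in any genotype or stage comparison, with group means between 7.07 and 11.8 CPM. The share of H2A.Z transcripts per kb from H2afv went from 97.3 ± 0.88% (SD, n = 7) in polyA GV controls to 87.6 ± 6.58% (n = 15) in GV cKO, and from 88.8 ± 6.90% (n = 8) in MII controls to 57.9 ± 13.4% (n = 15) in MII cKO.

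**Figure D5:**
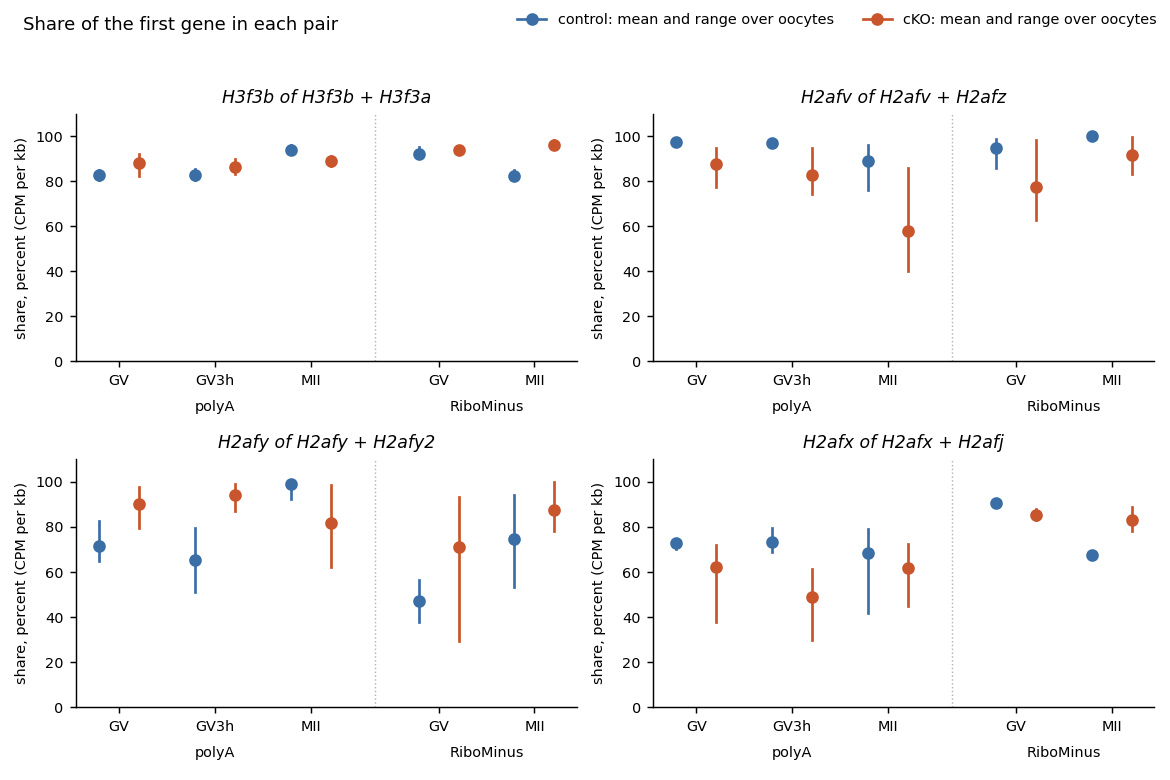
Share of the first gene in each pair, in percent of the CPM per kb of both genes, as the mean (point) and range (line) over the oocytes of each group, blue for controls and orange for cKO. Lengths are of all annotated exons, and the H2afy share would be larger on transcript length. H2afv falls to a mean of 57.9% of the H2A.Z pair in polyA MII cKO oocytes, and H3f3b is at 80.3% or more of the H3.3 pair in each group.

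H2afy encodes macroH2A1, an H2A variant with a large additional domain found at silenced chromatin (ENSMUSG00000015937, chr13:56073619-56136361, minus strand), and was the 1 gene of the 10 called higher in cKO oocytes in all 5 comparisons. PolyA GV controls ran from 12.7 to 20.2 CPM, with a median of 16.5, and cKO oocytes from 27.5 to 57.4 CPM, with a median of 45.3. At polyA GV3h the ranges were 12.2 to 17.6 CPM (median 14.6) and 39.7 to 77.8 CPM (median 47.3). At polyA MII they were 0.866 to 10.9 CPM (median 7.17) and 13.4 to 40.5 CPM (median 26.1). In none of the 3 did a control reach a cKO oocyte. The rises were 2.56-fold at GV (log2 1.35 ± 0.14, edgeR adjusted p = 1.42e-07, 0.144 with female sums), 3.45-fold at GV3h (log2 1.79 ± 0.14, adjusted p = 8.85e-09, 0.000292 with female sums) and 3.94-fold at MII (log2 1.98 ± 0.30, adjusted p = 7.64e-06, 0.00336 with female sums).

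H2afy was also higher in cKO oocytes in RiboMinus libraries. GV controls ran from 7.32 to 14.0 CPM, with a median of 12.2, and cKO oocytes from 11.3 to 29.96 CPM, with a median of 22.8, with overlap. The rise was 1.94-fold (log2 0.95 ± 0.23, edgeR adjusted p = 0.00554), and without cKO female V1131 it was 0.58 (adjusted p = 0.339) and without control female V1132 0.72 (0.0904). The MII controls were at 17.5, 13.8 and 14.1 CPM and the cKO oocytes at 31.5, 38.8, 35.1 and 26.0 CPM, with no overlap, a 2.26-fold rise (log2 1.18 ± 0.31, adjusted p = 0.0169, 0.231 with female sums), which ended without V1166 or oocyte V1145_3 or V1145_4 (1.06, 1.12 and 1.13). From GV to MII polyA H2afy fell by 1.34 ± 0.37 on the log2 scale in controls and by 0.70 ± 0.13 in cKO, calls that ended without V889 (-1.14) and V888 (-0.43). The cKO call also ended with female sums (-0.68, edgeR adjusted p = 0.0543). RiboMinus H2afy was not called in either genotype (0.46 ± 0.26 and 0.63 ± 0.29). The antisense gene Gm47071 shares exon sequence with H2afy, and its mean was between 4.41 and 7.38 CPM in all 10 groups.

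H2afy2 encodes macroH2A2 (ENSMUSG00000020086, chr10:61738665-61784147, minus strand) and was scarce, with at most 169 counts in any oocyte. It was lower in polyA GV3h cKO oocytes, at 0.155 to 2.08 CPM (median 0.896) against 1.30 to 4.75 CPM (median 2.20) in controls. The difference was -1.31 ± 0.40 (edgeR adjusted p = 0.00791, 0.0681 with female sums), and leaving out cKO female V946 or control female V982 ended the call (adjusted p = 0.0565 and 0.0697). At polyA MII the order was the other way round: 7 of the 8 controls held 0 counts and the other held 1, while the 15 cKO oocytes held 1 to 31 counts (0.145 to 4.43 CPM, median 1.46). The ratio of means was 84.6, with an exact 95% Poisson interval on the single control count of 15.2 to 3340, which covers counting error only. The filter on low counts removed the gene from the fit over oocytes, and edgeR without that filter gave an adjusted p of 9.63e-06. The GV controls held 101 counts in 7 oocytes, so the mean in controls went from 2.19 CPM at GV to 0.0219 at MII (the same interval puts the ratio at 17.95 to 3951), while in cKO the GV to MII change of 0.26 ± 0.34 was not called. RiboMinus values were spread widely, and neither genotype nor stage was called over all oocytes. The GV genotype difference of -0.46 ± 0.44 became -1.52 without cKO female V1126 (edgeR adjusted p = 0.00292), and the GV to MII change in controls of -1.01 ± 0.59 became -2.05 without oocyte V1145_4 (0.0232) and -1.52 with voom (0.0302). The protein-coding gene Aifm2 overlaps H2afy2 on the other strand and had a mean of 0.161 CPM in polyA MII controls and 0.296 in MII cKO.

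H3f3a, the first H3.3 gene (ENSMUSG00000060743, chr1:180800832-180813943, minus strand), differed between genotypes at MII in opposite directions in the 2 library types. PolyA MII controls ran from 40.4 to 61.1 CPM, with a median of 52.8, and cKO oocytes from 104 to 174 CPM, with a median of 133. Each cKO oocyte was above each control, by 2.44-fold on the fitted scale (log2 1.28 ± 0.11, edgeR adjusted p = 8.08e-10, 0.00197 with female sums). The RiboMinus MII controls were at 42.1, 27.3 and 42.0 CPM and the cKO oocytes at 16.3, 6.86, 11.2 and 10.9 CPM. Here each cKO oocyte was below each control, by 3.13-fold (log2 -1.65 ± 0.37, adjusted p = 0.00687, 0.0615 with female sums). At GV the genotypes were not called apart in polyA libraries (-0.15 ± 0.13) or in RiboMinus libraries (-0.12 ± 0.17), nor at GV3h (0.07 ± 0.12).

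On maturation H3f3a also went in different directions. In polyA libraries it fell by 0.38 ± 0.13 on the log2 scale in controls (edgeR adjusted p = 0.0178, 0.340 with female sums, and not called without V889, V853 or V896, at -0.10, -0.31 and -0.34) and rose by 1.07 ± 0.10 in cKO (adjusted p = 1.24e-11, 0.00371 with female sums), a difference of 1.47 ± 0.17 (adjusted p = 1.02e-08, 0.0801 with female sums). In RiboMinus libraries it rose by 1.20 ± 0.22 in controls (adjusted p = 0.000349, 0.00541 with female sums), with GV controls at 11.02 to 21.1 CPM, below all 3 MII controls, which came from 1 female. The change in cKO was -0.38 ± 0.27 and was not called, and the 2 genotypes differed by -1.59 ± 0.35 (adjusted p = 0.00407, 0.233 with female sums). The polyA difference was called without any 1 of the 10 females. The RiboMinus one was called without any 1 of the 6 females that could be left out, which do not include the only MII control female, and without any 1 of the 7 MII oocytes. The lincRNA gene Gm17275, on the other strand, had means that followed H3f3a, at 7.09 CPM in RiboMinus MII controls and 2.49 in cKO, and at 1.45 and 3.54 CPM in the polyA MII groups, and the antisense H3f3aos was at 0.0221 to 0.463 CPM.

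H3f3b, the more abundant H3.3 gene (ENSMUSG00000016559, chr11:116021912-116027962, minus strand, with no annotated gene overlapping it), was higher in cKO oocytes and higher at MII in polyA libraries. MII controls ran from 550 to 830 CPM, with a median of 652, and MII cKO oocytes from 715 to 1021 CPM, with a median of 876. At GV3h controls ran from 205 to 290 CPM, with a median of 250.3, and cKO oocytes from 237 to 490 CPM, with a median of 336. Both pairs of ranges overlapped, while the cKO female means lay above the control means at both stages. The rises were 0.29 ± 0.08 at MII (edgeR adjusted p = 0.00616, 0.0665 with female sums) and 0.47 ± 0.12 at GV3h (adjusted p = 0.00286, 0.00837 with female sums).

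At polyA GV the cKO oocytes of H3f3b fell into 2 levels by female. The 7 controls ran from 248 to 287 CPM, with a median of 263, and the 15 cKO oocytes from 195 to 641 CPM, with a median of 456. The 10 oocytes of female V888 averaged 480 CPM and the 5 of V857 averaged 244 CPM, below the control mean. The called difference of 0.57 ± 0.19 (edgeR adjusted p = 0.0197) became -0.15 without V888 (adjusted p = 0.237), so it rests on that female, and it also missed the threshold without control female V856 or V889 (0.51 and 0.60). From GV to MII H3f3b rose in polyA libraries by 1.36 ± 0.10 in controls and by 1.10 ± 0.13 in cKO, both also called with female sums. In RiboMinus libraries neither change was called over all oocytes (the cKO one was without V1167, 0.74, adjusted p = 0.0444), and the MII cKO oocytes, at 296, 324, 198 and 198 CPM, were above the 3 controls at 158, 132 and 150 CPM (log2 0.86 ± 0.24, adjusted p = 0.0217, 0.339 with female sums), a call that ended without V1166 (0.49) or any 1 of the 3 control oocytes (0.79 to 0.92).

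Chaperones and remodelers that carry histones to chromatin were taken from a list of 30 genes, all of which were tested in every comparison. Against controls, 5 rose and 4 fell in polyA GV oocytes (30% of the list, against 40.4% of all genes), 6 rose and 10 fell in GV3h oocytes (53.3%, against 55.5%), and 7 rose and 4 fell in MII eggs (36.7%, against 37.6%). In RiboMinus libraries 5 rose and 5 fell in GV oocytes (33.3%, against 37.6%), and 6 rose and 5 fell in MII eggs (36.7%, against 23.7%). With female sums 0, 13, 4, 0 and 4 of the 30 were called in that order, where 1, 6681, 2522, 3 and 1703 of all genes were. Their median log2 changes lay between -0.05 and 0.15, beside 0.00085 to 0.13 over all genes tested. Atrx, whose protein works with DAXX to place H3.3 at repeats, fell in all 5 comparisons over oocytes, from -0.31 to -2.15 on the log2 scale, and with female sums at polyA GV3h and RiboMinus MII (edgeR adjusted p = 0.00283 and 0.00154; 0.22, 0.495 and 0.22 at polyA GV, polyA MII and RiboMinus GV). Asf1b, a chaperone that hands H3-H4 on, rose in all 5 over oocytes (0.36 to 1.59) and with female sums at polyA GV3h (adjusted p = 0.00337, and 0.0523 to 0.521 in the others). Npm2, the oocyte nucleoplasmin that stores histones, fell in 4 of 5 (with female sums at RiboMinus MII alone, adjusted p = 0.024), with its MII values in RiboMinus libraries at 1290 ± 47.2 CPM (SD, n = 3) in controls and 445 ± 115 (n = 4) in cKO. Tlk2, a kinase of ASF1, rose in 4 (2 with female sums). Hells, Npm1 and Npm3 each rose in 3, Dek fell in 3, and Hira, the chaperone of H3.3 at genes, rose in 3 (0 with female sums, adjusted p = 0.0737 to 0.211). When polyA oocytes matured to MII, 18 of the 30 rose and 7 fell in controls (60% rose, against 30.1% of all genes), and 19 rose and 5 fell in cKO (63.3%, against 33.1%). With female sums 16 rose and 4 fell in controls and 18 and 4 in cKO, where 6681 and 6910 of all genes were called in either direction. The lowest adjusted p in controls over oocytes were those of Npm2 (-2.25 ± 0.11) and Dek (1.40 ± 0.09), a DNA-binding chaperone. In RiboMinus controls 8 rose and 8 fell (26.7% rose, against 15% of all genes), and Npm2 rose by 1.46 ± 0.11, opposite to its polyA fall. In RiboMinus cKO 2 of the 30 rose and 5 fell (23.3% called, against 16.1% of all genes), and 0 with female sums, where 0 of all genes were called.

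Of 15 other variant histone genes, 5 to 8 passed the filter on low counts in each genotype comparison, and those called were all higher in cKO: 5 of 7, 5 of 6, 3 of 5, 2 of 6 and 3 of 8 genes in the order above, where 22%, 29.4%, 19%, 21.2% and 13.9% of all genes were called higher. With female sums 0 of 6, 5 of 7, 1 of 5, 0 of 8 and 3 of 10 tested were called, where 1, 6681, 2522, 3 and 1703 of all genes were. Cenpa, the centromeric H3 variant, was among them in all 5 over oocytes, and in polyA GV3h and RiboMinus MII with female sums, by 0.43 ± 0.13, 0.66 ± 0.14, 0.31 ± 0.12, 0.76 ± 0.18 and 1.999 ± 0.33 on the log2 scale. Hist3h2a was called in 4 of them, from 1.43 to 3.01, and in 3 with female sums. Replication-dependent histone genes, 62 in the list, summed to 158 ± 21.1 CPM (SD, n = 7) in polyA GV controls and to 1724 ± 409 CPM (n = 8) in RiboMinus GV controls, library types that were scaled separately. In polyA cKO libraries 14 of 21 tested rose and 0 fell in GV oocytes (66.7% rose, against 22% of all genes), 13 of 20 rose and 1 fell in GV3h oocytes (65%, against 29.4%), and 4 of 7 rose and 0 fell in MII eggs (57.1%, against 19%). In RiboMinus cKO libraries 18 of 34 rose and 0 fell in GV oocytes (52.9%, against 21.2%), and 8 of 38 rose and 1 fell in MII eggs (21.1%, against 13.9%). With female sums 0 of 27, 9 of 23, 3 of 10, 1 of 45 and 9 of 48 tested rose, so nearly all of the calls at polyA GV and RiboMinus GV ended. In each comparison more of these genes passed the filter than over oocytes. These genes lie in clusters of near-identical copies, so counts of single members are uncertain.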

How the data were processed

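The gene files hold raw counts of reads per Ensembl gene ID as deposited, 1 library per file. Per the submitters' processing notes, the tools named are cutadapt 2.5, FastQC 0.11.8, STAR 2.7.2a, SAMtools 1.9, HTSeq 0.9.1, R 3.5.1 and DESeq2 1.24.0, and the build is mm10. Strand setting and annotation release are not given in the sources used here, so reads of overlapping antisense genes cannot be told apart. The 5 summary lines were left out of library sizes: reads outside genes came to 5.85 to 14.2% of polyA and 8.34 to 12.4% of RiboMinus reads in genes, outside genes or ambiguous together. The files have 0 spike-in lines, so each level is relative to the other genes of its library. The 22 rRNA files were not used.

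Each of 16 comparisons (5 of genotype, 6 of stage, 3 genotype by stage, 2 library type by stage) was fitted with edgeR 4.0.16 in R 4.3.3 on the oocytes of its own groups (filterByExpr, TMM, quasi-likelihood F test, two-sided, Benjamini-Hochberg). The fits of the 5 genotype comparisons were also run on simulated counts, with an outcome not given here. Those counts had no female effect, so they cannot speak to oocytes nested in females. Alternatives were DESeq2 1.42.0, DESeq2 size factors, library totals, no filter, female sums, voom from limma 3.58.1 with females as random blocks, a single fit of all groups, and leaving out each female or RiboMinus MII oocyte. Female sums at RiboMinus MII, and for the GV to MII change of RiboMinus controls, assume that the 1 MII control female varies like the others. No 2 libraries were identical. Coordinates, exon lengths and transcripts are from GENCODE M21 (GRCm38), and symbols matched 55394 of 55573 IDs. Genes named outside the 10 are the chaperones and other variants called, at most 6 per list and comparison in order of adjusted p, and the 5 genes most like H1foo with a mean log2 CPM of at least 3; Hira, Tlk2, Hells, Npm1, Npm3 and Dek are also given by their counts of calls. The 10 genes and the lists were chosen with earlier results of these data known. Python 3.11.15, numpy, pandas, scipy and matplotlib were used for summaries and figures.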

Additional observations from a re-analysis of the deposited data

Results flagged for a closer look

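In 4 of 60 group and gene combinations of 4 to 10 oocytes, 1 oocyte stood apart from the rest of its group, and chance flags about 1 in 20 groups. They were H2afx in a polyA MII control (28.4 CPM), H2afy2 in a polyA MII control (0.175 CPM, the single count of that group), H2afy2 in a RiboMinus GV cKO oocyte (8.65 CPM) and H2afy2 in a RiboMinus GV control (6.44 CPM).

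The genotypes differed in their GV to MII change, by an interaction term in edgeR, for 4 genes in polyA libraries, where 14.7% of all genes were called: H1f0 (-0.53 on the log2 scale), H2afv (-1.51), H3f3a (1.47) and H2afy2. The fitted value of H2afy2 was 6.13, but it depends on the prior count because the polyA MII controls held 1 count. In RiboMinus libraries 3 genes differed, where 14.8% of all genes were called: H1foo (1.91), H2afx (1.28) and H3f3a (-1.59). With female sums none of these 7 was called (edgeR; at an unadjusted p under 0.05, 3 of the 10 genes passed in polyA and 4 in RiboMinus libraries). Between GV and GV3h 0 of the 10 genes differed by genotype with edgeR (3 at an unadjusted p under 0.05) or DESeq2, against 0.0959% of all genes.

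The library types differed in the GV to MII change of controls for H1foo (3.57), H1f0 (1.55), H3f3b (1.68), H2afz (4.83, with 1 count in the RiboMinus MII controls), H2afj (-2.71), H2afv (-1.54), H2afy (-1.63), H2afy2 (-4.97, with 1 count in the polyA MII controls) and H3f3a (-1.41). In cKO they differed for H1foo (1.71), H1f0 (0.73), H3f3a (1.68), H3f3b (0.88), H2afx (-2.20), H2afj (-2.37), H2afv (-2.44) and H2afy (-1.09). Positive values mean a larger polyA than RiboMinus change.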

How the results depend on the processing

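Most values kept their direction and their side of the threshold: 151 of 156 with DESeq2, 152 with DESeq2 size factors, 148 with library totals, 151 with no filter, 152 with all groups in 1 fit, 144 with limma voom and 124 with female sums, where the other 32 missed the threshold. Leaving out 1 female gave 808 of 879 and leaving out 1 oocyte 257 of 273. With female sums the number of the 10 genes called was 0 at polyA GV, RiboMinus GV and RiboMinus MII (6, 3 and 5 over oocytes), 0 for both genotype interactions with MII (4 and 3), and 5 for the library type interaction in cKO (8). With voom it was 2 at polyA GV, where H1f0, H2afx, H2afz and H3f3b were lost (adjusted p = 0.148 to 0.315), and H2afz at RiboMinus GV (0.154), H2afj at polyA MII (0.0627) and the cKO fall of polyA H2afz (0.132) were lost too. Leaving out 1 female or oocyte gave 0 to 6 genes at RiboMinus GV (6 without V1126, 0 without V1131), 2 to 6 (2 without V1166 or oocyte V1145_3) at RiboMinus MII, 0 to 3 for polyA cKO GV3h against GV (3 without V857), 3 to 4 (3 without V1132 or V1133) for RiboMinus control MII against GV, 0 to 1 for RiboMinus cKO MII against GV (1 without V1167) and 0 to 1 for the genotype interaction with GV3h (1 without V888). H3f3b reversed without cKO female V888, and over all such fits it ran from -0.15 (without V888, edgeR adjusted p = 0.237) to 0.84 at polyA GV, from -0.36 to 0.65 (without V888, 0.0371) for the interaction with GV3h and from -0.59 (without V857, 0.00126) to 0.51 (without V888, 0.00399) for that with MII, calls of opposite sign. Interactions of genotype with MII that gained a call were those of H2afx without V897 (-0.99), of H2afz without V888 or V836 (-1.72 and -1.44) and of RiboMinus H3f3b without V1167 (0.87). Library type interactions did so for H2afx in controls without V853 or oocyte V1145_3 (-0.85 and -0.94) and for H2afz in cKO without oocyte V1167_2 (2.41). The cause of these changed calls was not tested. Scaling by library totals shifted the median log2 change of all genes by 0.10 to 0.17 in the polyA genotype comparisons and RiboMinus GV, by -0.38 and -0.45 for polyA MII against GV, and by -0.48 and -0.65 for the library type interactions. No paired analysis was possible because each female carried 1 genotype and 1 stage, and the numbers shared in the labels join the RiboMinus and rRNA files of the same oocyte. Counts under about 10 per oocyte limit H2afz and H2afy2, and 1 control female limits RiboMinus MII.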
